A study of Mus musculus with 10 samples.

Results

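The subject is Dbp and 9 other genes of the mammalian circadian clock in activated mouse T cells that lack the transcription factor KLF13. The 10 genes are Dbp, Tef, Nr1d1, Nr1d2, Per1, Per2, Per3, Cry1, Cry2 and Clock, of 19048 genes measured in both tables of the series. Dbp was picked because its signal had been seen to be higher in the knockout (KO) arrays, so its KO and WT values are given here as a description without a test. The other 9 were taken as its partners in the clock, and the question was whether Dbp was higher alone or together with them. All 10 passed the filter on dim genes and lay among the 12485 genes tested. They were read by 153 exon-level and 10 gene-level probe sets that name exactly 1 of them.

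The samples were CD3+ T cells of male mice of the Balb/C background, 12 weeks old, which were activated for 4 days with anti-CD3 coated on the plate and anti-CD28 in the medium. The KO group was 5 mice lacking KLF13 (KO1 to KO5) and the wild-type group was 5 mice (WT1 to WT5), with no other allele or agent named for either. RNA was measured on Affymetrix arrays and is given as log2 signal. The labels name no hour of the day for the isolation of the cells or of the RNA, and no position of the deletion within Klf13.

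The circadian clock is a transcriptional loop with a period of about a day. CLOCK and its partner BMAL1 (gene Arntl) bind E-box sequences and switch on the Per and Cry genes, whose proteins then repress CLOCK and BMAL1. The same E-boxes drive Nr1d1 and Nr1d2, which encode the REV-ERB nuclear receptors that repress Arntl, and Dbp, which with Tef and Hlf forms the PAR bZIP family of activators that bind D-box sequences. NFIL3 binds the D-box as a repressor and is also a regulator of lymphocyte cytokine genes. KLF13 is a zinc-finger protein that binds GC-rich and CACCC sequences.

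The arrays lay on 3 separate scales, which are treated here as scale sets: replicate 1 of each genotype and replicates 2 and 3 of each in the exon-level table, and replicates 4 and 5 of each in the gene-level table. Differences were therefore taken within a scale set. KO3 stood apart, with its signals spread over an interquartile range of 3.10, where the other 9 arrays had 3.40 to 3.56, and results are also given without it where it decided them. Klf13 itself was lower in 5 of 5 KO arrays than in the WT arrays of their set (log2 difference -0.86 ± 0.12, SE, n = 5 and 5, limma adjusted p = 0.0126), and 10.8% of all genes tested were lower in 5 of 5. The Klf13 call was lost in 6 of 22 other settings, with the table as block (adjusted p = 1.00) and without KO4, KO5, WT2, WT3 or WT4 (adjusted p up to 0.0689). In the gene-level table alone it passed in 15 of 15 settings, which are not 15 separate checks. Array weights and another summary of exon-level probe sets, for example, left the gene-level values as they were. Of the marker lists, 7 of 8 T cell genes passed the filter, against 3 of 7 for B cells, 1 of 6 for myeloid cells, 2 of 4 for NK cells and 3 of 4 for erythroid cells. Over all genes tested the median KO minus WT difference was -0.10 (log2), and it was -0.22 in replicates 2 and 3.

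The DNA around the start of Dbp on chromosome 7 is shown because Dbp is the member that differed. In the 250 bases before its RefSeq start (build GRCm38.p6) a search on both strands found 1 GC-box (GGGCGG), 3 CACCC boxes (CACCC) and no E-box (CACGTG), no CACGTT, no D-box (TTATGTAA or TTACGTAA) and no AGGTCA, the half-site of REV-ERB and ROR receptors. The first line is the stretch before the outermost start of the gene (chr7:45704997-45705099, plus strand), with a CACCC box of the other strand in capitals. The second is the 30 bases around the GC-box (chr7:45705198-45705227, plus strand), with that box alone in capitals. Only 103 of the 250 bases lie before the outermost start. The GC-box and the other CACCC boxes lie past it, within the outer bounds of the gene.
Dbp, before the gene: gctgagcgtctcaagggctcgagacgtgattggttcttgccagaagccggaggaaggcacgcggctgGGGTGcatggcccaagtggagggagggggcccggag
Dbp, GC-box: ctgccccctcctCCGCCCctgggtgcacac
Of the 9 members with a promoter in the RefSeq table, 3 had an E-box in this window, namely Tef, Per1 and Cry1, and they are printed because they carry the clock's own element close to the start. The E-box is in capitals, for Tef at its upstream start (chr15:81802534-81802563, plus strand), for Per1 (chr11:69098771-69098800, plus strand) and for Cry1 (chr10:85185097-85185126, minus strand).
Tef, E-box: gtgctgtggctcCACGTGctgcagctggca
Per1, E-box: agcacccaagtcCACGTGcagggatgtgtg
Cry1, E-box: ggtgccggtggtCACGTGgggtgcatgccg
Among all 32851 windows of the same length 6.02% held an E-box, 3.85% CACGTT and 14.02% AGGTCA. A GC-box stood in 32.74% of them, a CACCC box in 52.01% and a D-box in 0.93%. Of the 9 members, 8 had a GC-box and 8 a CACCC box. CACGTT stood before Nr1d1, Cry1 and Cry2, a D-box before Per3, and AGGTCA before Nr1d2, Per1 and Clock. Tef, Per1 and Clock had several windows and were counted if any held the motif, unlike the shares of single windows. Per2 had no window. Each motif was counted wherever its letters occurred, overlapping copies included, and a match or its absence in this window is a description only.

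Dbp had log2 signals of 5.86, 6.41, 7.05, 6.78 and 6.78 in KO1 to KO5, against 5.48, 6.26, 6.35, 5.63 and 5.77 in WT1 to WT5. Every KO array lay above the WT arrays of its scale set, widely in the gene-level table and for KO3, and narrowly for KO2 over WT3. Replicate 1 differed by 0.37 (log2), the mean of replicates 2 and 3 by 0.42, and the gene-level arrays by 1.09. Most of the 0.42 came from KO3, since KO2 read 6.41 against 6.26 and 6.35 in WT2 and WT3. Within the exon-level table the difference was 0.41 ± 0.22 (SE, n = 3 and 3). Over the 10 arrays it was 0.68 ± 0.16 (SE, n = 5 and 5), which is 1.60-fold, and within the gene-level table it was 1.09 ± 0.12 (SE, n = 2 and 2), or 2.12-fold. Without KO3 the difference over the arrays was 0.62. From the highest difference down, Dbp held place 25 of 12485. In the same fit 0.0961% of the tested genes passed as higher (limma, Benjamini-Hochberg adjusted p under 0.05), and 1.63% of them had 5 of 5 KO arrays above the WT arrays of their set. Because Dbp was chosen on this contrast, nothing is read from its place among them. More cells of a type that expresses a gene and more RNA of it per cell cannot be told apart in these bulk samples.

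**Figure D1:**
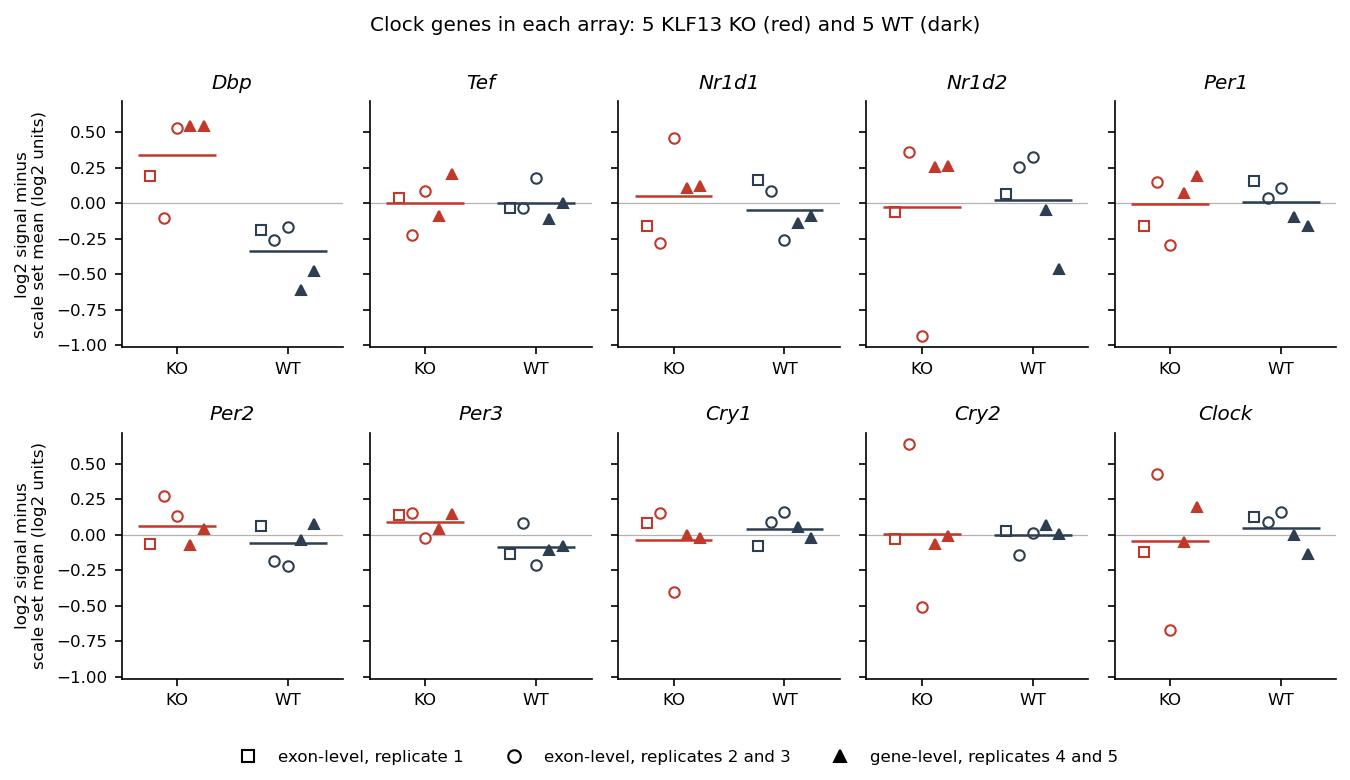
Log2 signal of each clock gene in each array, centred on the mean of its scale set (y axis, log2 units), for 5 KO (red, left) and 5 WT arrays (dark, right). Bars are group means, and marker shapes name the scale sets. Dbp, which was chosen for its rise in KO, has KO points above the WT points of their set in 5 of 5 arrays. That holds for none of the other 9, and for 1.63% of all genes tested.

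Tef, the closest relative of Dbp among the members and likewise a D-box activator, had 5.55, 6.56, 6.87, 5.24 and 5.54 in KO1 to KO5, against 5.48, 6.75, 6.96, 5.22 and 5.33 in WT1 to WT5. The groups overlapped in replicates 2 and 3, where both KO arrays lay under WT3, and in the gene-level table. The difference over the 10 arrays was 0.00081 ± 0.12 (SE, n = 5 and 5, limma adjusted p = 0.998). Among the gene-level arrays it was 0.11 ± 0.14 (SE, n = 2 and 2, adjusted p = 0.782). Tef thus did not pass where Dbp had its largest difference, and the standard error does not show that it was level.

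The REV-ERB receptors came next. Nr1d1, a direct E-box output like Dbp, had 4.40, 5.40, 6.14, 4.89 and 4.91 in KO1 to KO5, against 4.72, 5.77, 5.42, 4.65 and 4.69 in WT1 to WT5. KO1 and KO2 lay below their WT arrays and KO3, KO4 and KO5 above them. The difference was 0.10 ± 0.16 (SE, n = 5 and 5, limma adjusted p = 0.733), and 0.23 ± 0.12 in the gene-level table (SE, n = 2 and 2, adjusted p = 0.406). Without KO3 it was -0.028.

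Nr1d2, which encodes the second REV-ERB, had 4.89, 6.61, 5.32, 6.60 and 6.60 in KO1 to KO5, against 5.01, 6.50, 6.57, 6.29 and 5.87 in WT1 to WT5. Its spread came from KO3, the lowest array of its set, while both KO arrays of the gene-level table lay above both WT arrays. The difference over all arrays was -0.049 ± 0.25 (SE, n = 5 and 5, limma adjusted p = 0.915) and turned to 0.23 without KO3 (adjusted p = 0.335). For the gene-level arrays it was 0.51 ± 0.15 (SE, n = 2 and 2, adjusted p = 0.129). Among the 9 this was the largest difference in that table. It passed there without WT4 (0.72, adjusted p = 0.0267) and with the replicate number as a block (adjusted p = 0.0474).

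Of the period genes, which encode the repressors that pair with the cryptochromes, Per1 had 5.82, 7.22, 6.77, 6.70 and 6.82 in KO1 to KO5, against 6.14, 7.10, 7.17, 6.54 and 6.47 in WT1 to WT5. It was lower in KO1 and KO3 and higher in KO2, KO4 and KO5 than the WT arrays of the set, so no direction was shared. The difference was -0.016 ± 0.14 (SE, n = 5 and 5, limma adjusted p = 0.950) over all arrays and 0.26 ± 0.12 in the gene-level table (SE, n = 2 and 2, adjusted p = 0.352).

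Per2 had 4.92, 6.87, 6.73, 4.78 and 4.89 in KO1 to KO5, against 5.05, 6.42, 6.38, 4.82 and 4.93 in WT1 to WT5. Both KO arrays of replicates 2 and 3 lay above both WT arrays, with a difference of 0.40, but KO1 lay below WT1 and the gene-level arrays overlapped. The fit over all arrays gave 0.12 ± 0.12 (SE, n = 5 and 5, limma adjusted p = 0.591).

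Per3 had 4.44, 5.38, 5.21, 3.60 and 3.71 in KO1 to KO5, against 4.17, 5.31, 5.02, 3.46 and 3.49 in WT1 to WT5. It was the member other than Dbp whose difference was above 0 in each scale set, at 0.27, 0.13 and 0.18. A difference above 0 in each set was found for 11.3% of all genes tested. For Per3 4 of 5 KO arrays lay above their WT arrays, a count whose share over all genes was not taken. KO was below WT in each scale set for 0 of the 9 partners, and for 24.8% of all genes tested. Its difference of 0.18 ± 0.11 did not pass (SE, n = 5 and 5, limma adjusted p = 0.435). Per3 lay close to the 30th percentile that the filter on dim genes required, at percentile 34.8 of the exon-level and 30.5 of the gene-level values.

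The cryptochromes are the main repressors of CLOCK and BMAL1. Cry1 had 6.24, 7.44, 6.89, 6.70 and 6.68 in KO1 to KO5, against 6.07, 7.38, 7.45, 6.76 and 6.68 in WT1 to WT5, and the groups overlapped outside replicate 1. Its difference was -0.078 ± 0.13 (SE, n = 5 and 5, limma adjusted p = 0.741). Cry2 had 5.44, 7.25, 6.10, 5.69 and 5.74 in KO1 to KO5, against 5.49, 6.47, 6.62, 5.82 and 5.76 in WT1 to WT5. KO2 was the highest and KO3 the lowest array of the Cry2 set, and the difference was 0.0100 ± 0.18 (SE, n = 5 and 5, limma adjusted p = 0.979). Apart from KO2, the KO arrays (4 of 5) lay below the WT arrays of their set. The share of all genes with that count was not taken. In the gene-level table the Cry2 difference was -0.076 ± 0.12 (SE, n = 2 and 2, limma adjusted p = 0.833).

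Clock, the activator of the loop, had 4.99, 6.99, 5.89, 6.10 and 6.34 in KO1 to KO5, against 5.24, 6.65, 6.72, 6.14 and 6.01 in WT1 to WT5. As for Cry2, KO2 was the highest and KO3 the lowest array of its set. The difference was -0.092 ± 0.19 (SE, n = 5 and 5, limma adjusted p = 0.784), and 0.10 without KO3.

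**Figure D2:**
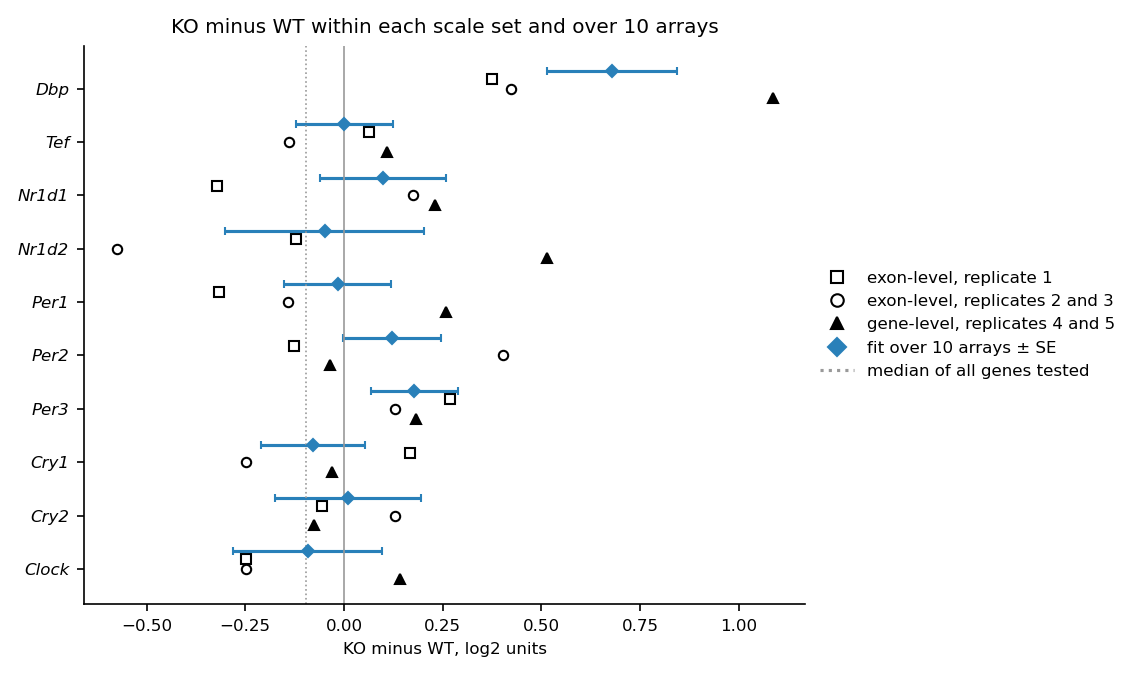
KO minus WT difference of each clock gene (x axis, log2 units) within each scale set (black symbols) and from the fit over 10 arrays (blue, ± SE), with the median of all genes tested as a dotted line. The Dbp symbols lie at 0.37, 0.42 and 1.09, and the fitted values of the other 9 genes lie between -0.092 and 0.18.

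Of the 9 partners, 0 passed over the 10 arrays (limma, 0 of them at an unadjusted p under 0.05), where 0.585% of all genes tested passed. Of the gene-level values 0 of 9 passed, with 1 of them, Nr1d2, at an unadjusted p under 0.05, against 2.72% of all genes. Of the exon-level values 0 of 9 and 0% of all genes passed, with 0 of the 9 at an unadjusted p under 0.05. The median difference of the 9 over the 10 arrays was 0.00081, beside -0.10 over all genes tested, with 5 above 0 and 4 below. That median differed by scale set. Among gene-level values, where Dbp differed most, it was 0.14, beside -0.010 over all genes tested. Between KO1 and WT1 it was -0.12, beside -0.018 over all genes. The other exon-level arrays gave -0.14, beside -0.22. The highest difference among the 9 in the fit over the 10 arrays was 0.18, for Per3. That the 0.68 of Dbp exceeded it follows in part from the choice of Dbp. In the KO arrays Dbp, chosen for its rise, was higher without a called change in Tef, Nr1d1, Nr1d2 or the Per genes. The standard errors of 0.11 to 0.25 do not show that those genes were level.

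Whether the KO difference itself differed between the tables was tested for the 9 partners with an interaction of genotype and table. None of the 9 passed (limma, 0 at an unadjusted p under 0.05), where 0% of all genes passed. Nr1d2 had the largest estimate, 0.94 ± 0.45 (SE, gene-level minus exon-level, n = 5 and 5, adjusted p = 0.872), followed by Per1 with 0.46 ± 0.25 (adjusted p = 0.872). Dbp, described without a test, had 0.68 ± 0.28.

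The exon-level probe sets showed how even the Dbp difference was along the gene. Of its 7 probe sets, 4 were higher in KO1 than in WT1 and 5 were higher on average in KO2 and KO3 than in WT2 and WT3, with 3 higher in both. Medians over the 7 were 0.59 in replicate 1 and 0.48 in replicates 2 and 3. Probe set 10553098 read 7.24, 7.68 and 7.83 in KO1 to KO3, against 6.08, 7.32 and 7.22 in WT1 to WT3, so each KO array lay above the WT arrays of its set. Probe set 10553094 read 5.79, 6.95 and 8.04 in KO1 to KO3, against 5.21, 6.19 and 6.60 in WT1 to WT3, again without overlap within a set. Probe set 10553096 read 7.70, 7.08 and 9.57 in KO1 to KO3, against 8.01, 7.90 and 7.66 in WT1 to WT3. There KO1 and KO2 were lower and KO3 was far higher. At probe set 10553097, with 5.29, 6.21 and 5.83 in KO1 to KO3, against 5.66, 5.98 and 6.10 in WT1 to WT3, the groups overlapped. The exon-level difference of Dbp thus rested on some of its probe sets, and the single gene-level probe set 10553092 gave 6.78 in both KO4 and KO5, against 5.63 and 5.77 in WT4 and WT5.

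**Figure D3:**
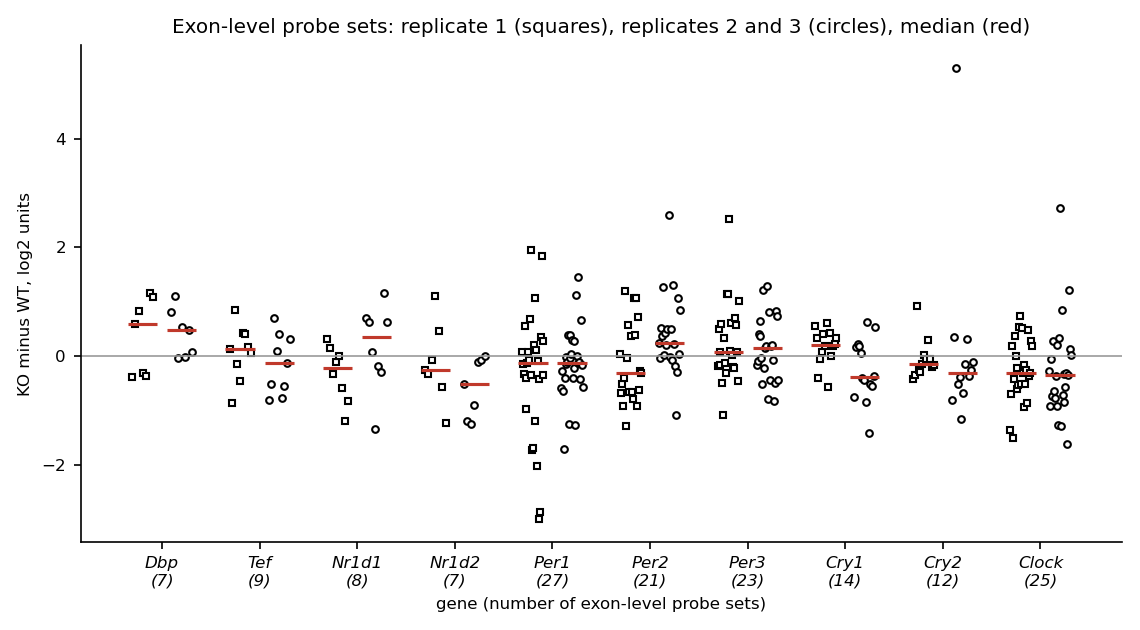
KO minus WT difference (y axis, log2 units) of each exon-level probe set of the clock genes, for replicate 1 (squares) and for the mean of replicates 2 and 3 (circles), with the median of each in red. The Dbp medians are 0.59 and 0.48. The isolated high circles of Per2, Cry2 and Clock stand for 1 probe set each that was high in KO2.

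Among the partners single probe sets moved the exon-level means. Probe set 10485173 of Cry2 read 5.63, 14.89 and 6.94 in KO1 to KO3, against 4.71, 5.38 and 5.84 in WT1 to WT3. Probe set 10530746 of Clock read 2.10, 14.74 and 4.79 in KO1 to KO3, against 2.61, 7.76 and 6.31 in WT1 to WT3, and probe set 10356611 of Per2 read 4.45, 10.87 and 6.36 in KO1 to KO3, against 5.11, 5.86 and 6.18 in WT1 to WT3. In each case KO2 alone was extreme. With the median of the probe sets in place of their mean, the Cry2 difference was -0.19 and the Per2 difference -0.023 (adjusted p = 0.537 and 0.927). The median over the Tef probe sets was 0.13 in replicate 1 and -0.12 in replicates 2 and 3, and that of Nr1d1 was -0.22 and 0.36.

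The rest of the clock was examined in 4 lists, of activators and ROR receptors, repressors and D-box factors, kinases and ubiquitin enzymes, and outputs. Together they held 26 tested genes. Of these, 0 passed as higher and 1 as lower over the 10 arrays, where 0.489% of all genes passed as lower. The median of the 26 was -0.17, with 5 above 0 and 21 below, beside -0.10 over all genes.

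The gene that passed was Nfil3, the D-box repressor that opposes DBP. It had 7.68, 7.61, 8.08, 8.36 and 8.44 in KO1 to KO5, against 8.23, 8.44, 8.38, 9.60 and 9.52 in WT1 to WT5. All 5 KO arrays lay below the WT arrays of their set, which was so for 10.8% of all genes tested. Nfil3 fell by 0.80 ± 0.15 over the 10 arrays (SE, n = 5 and 5, limma adjusted p = 0.0389) and in the gene-level table by 1.16 ± 0.12 (SE, n = 2 and 2, adjusted p = 0.00354), where 1.99% of all genes passed as lower. The call over all arrays was lost in 17 of 22 other settings, among them quantile normalization within each table (adjusted p = 0.160) and the omission of 9 of the 10 arrays in turn (adjusted p up to 0.161). It was kept without KO3 (-0.91, adjusted p = 0.000777). Its gene-level call passed in 15 of 15 settings, several of which left the gene-level values as they were. Before its RefSeq start on chromosome 13 the same search found 1 AGGTCA half-site, which 14.02% of all windows held, and no E-box or CACGTT. It also found 9 overlapping or neighbouring GC-boxes, no CACCC box and no D-box. The 30 bases around a run of them, in capitals, are shown to set beside Dbp, which had 1 (chr13:52981184-52981213, minus strand).
Nfil3, GC-boxes: gcggagaggacgGGGCGGGGCGGGGCGGgg

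The remaining clock genes did not pass. Arntl, the partner of Clock, had a difference of 0.069 ± 0.14 (SE, n = 5 and 5, limma adjusted p = 0.777), and Hlf, the third PAR bZIP gene, 0.0060 ± 0.14 (adjusted p = 0.982). Ciart, an E-box-driven repressor, was at -0.16 ± 0.16 (adjusted p = 0.585). Among kinases and ubiquitin enzymes 0 of 8 passed, with a median of -0.24 that reached -0.42 in replicates 2 and 3, where the arrays as a whole were lower. Csnk2a1, a casein kinase subunit, had the smallest p there (-0.37 ± 0.19, adjusted p = 0.368). Among outputs 0 of 10 passed. The output of smallest p was Klf9, a KLF family member and glucocorticoid target, with 5.52, 6.84, 6.71, 6.14 and 5.84 in KO1 to KO5, against 5.40, 6.48, 6.60, 5.49 and 5.65 in WT1 to WT5. All 5 KO arrays lay above the WT arrays of their set, as for 1.63% of all genes, and the difference was 0.29 ± 0.12 (SE, n = 5 and 5, limma adjusted p = 0.294).

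**Figure D4:**
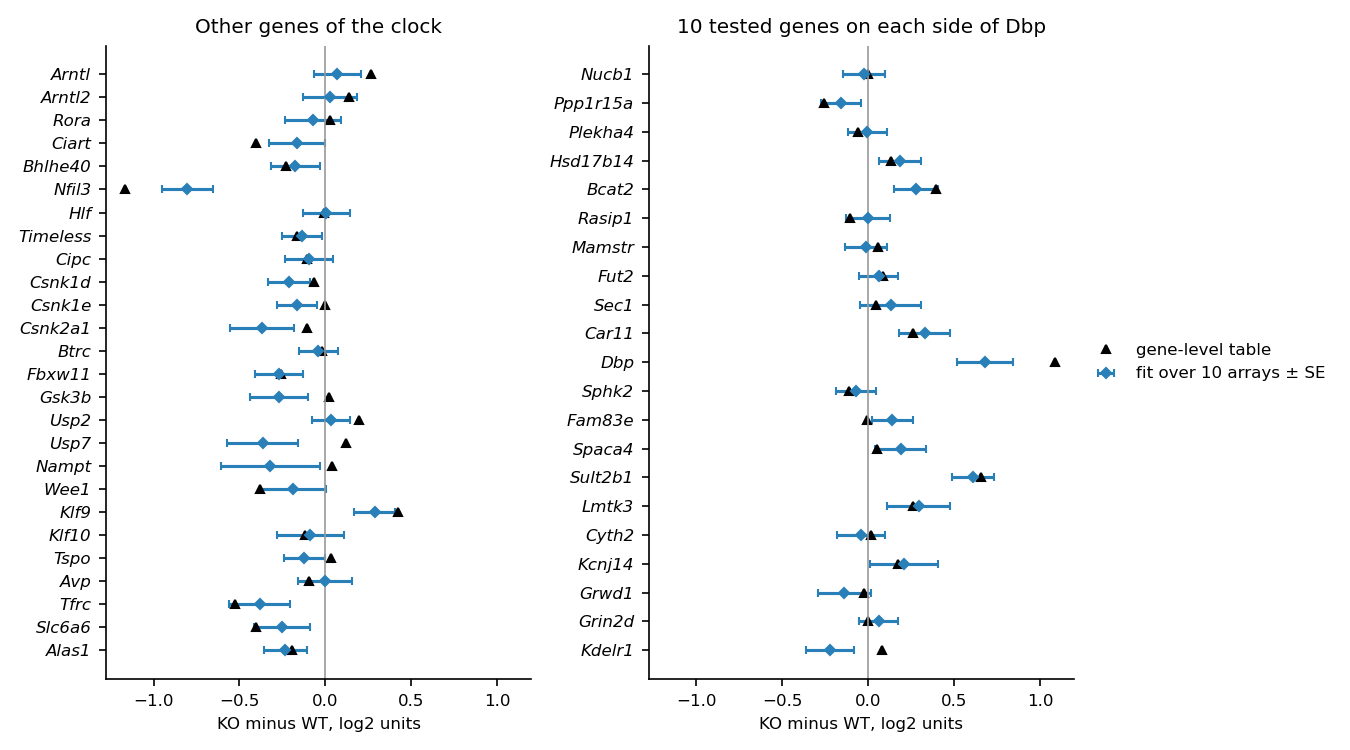
KO minus WT difference (x axis, log2 units) from the fit over 10 arrays (blue, ± SE) and in the gene-level table (triangles), for 26 other genes of the clock (left) and for Dbp with the 10 tested genes on each side of it on chromosome 7 (right). Nfil3 lies lowest on the left at -0.80 and -1.16, and Dbp highest on the right at 0.68 and 1.09, with Sult2b1 next at 0.61 and 0.66.

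Glucocorticoid hormone induces Per1 and other genes in T cells, so 9 such genes were set beside the clock. Of them 0 passed in either direction, where 0.585% of all genes passed. Of the 9, 2 lay above 0 and 7 below, with a median of -0.23 beside -0.10 over all genes tested. Ddit4, an inhibitor of mTOR signalling, had the smallest p (-0.41 ± 0.13, SE, n = 5 and 5, limma adjusted p = 0.232). Tsc22d3, the glucocorticoid-induced leucine zipper gene, was at 0.056 (adjusted p = 0.818).

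Dbp lies on chromosome 7, as Klf13 does, with 47 tested genes between them in the RefSeq gene order. Of the 10 tested genes on each side of Dbp, 0 of 20 passed over the 10 arrays, where 0.585% of all genes passed. Of the 20, 11 lay above 0 and 9 below, with a median of 0.061. The nearest tested genes were Car11, a carbonic anhydrase-related gene, at 0.33 ± 0.15 (SE, n = 5 and 5, limma adjusted p = 0.329), and Sphk2, a sphingosine kinase, at -0.073 ± 0.12 (adjusted p = 0.724). The member of smallest p was Sult2b1, a sterol sulfotransferase, with 4.35, 5.17, 5.58, 4.31 and 4.44 in KO1 to KO5, against 4.04, 4.70, 4.64, 3.76 and 3.67 in WT1 to WT5. Its groups did not overlap in any set, as for 1.63% of all genes in that direction. The difference of Sult2b1 was 0.61 ± 0.12 (SE, n = 5 and 5, limma adjusted p = 0.0555), and it rose in the gene-level table by 0.66 ± 0.13 (SE, n = 2 and 2, adjusted p = 0.0295), where 0.721% of all genes passed as higher. That call was lost without KO4 (adjusted p = 0.0647) or without KO5 (0.122).

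The genes most like Dbp across the 10 arrays were named by the smallest root-mean-square distance between set-centred log2 values. They were Rasl11b, a small GTPase of the Ras family, at 0.146, Atat1, the tubulin acetyltransferase, at 0.156, Lysmd2 at 0.157, Dtx4, of the Deltex family of ubiquitin ligases, at 0.159, and Rapgef3, a cAMP-activated exchange factor, at 0.162. None of the clock genes was among them. The member closest to Dbp was Nr1d1, at a distance of 0.338 and place 1078 among 12484 other genes, and the farthest was Nr1d2, at 0.589 and place 9462. All 5 had a higher difference in the gene-level table than in the other scale sets, as Dbp had, from 0.71 for Rapgef3 to 1.18 for Dtx4, which follows in part from the choice.

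Markers of cell state moved in the same arrays. Of 8 proliferation genes 7 were tested, and 6 of them (Mki67, Top2a, Ccna2, Cdk1, Aurka and Plk1) fell in the gene-level table (limma), where Dbp had its largest difference and where 1.99% of all genes passed as lower. The median of the 7 was -0.93 there, and 0 of the 7 passed over the 10 arrays. Their median was -0.29 in replicate 1, and 0.10 in the pair of replicates 2 and 3. The mean of the 7 set-centred log2 values ran from -0.50 to 0.23 in KO arrays and from 0.027 to 0.66 in WT arrays. Of 8 genes of naive and memory T cells 6 were tested. Their median was 0.12 in replicate 1, -0.42 over replicates 2 and 3, and 0.50 for the gene-level values. Dapl1 rose over the 10 arrays (1.01 ± 0.13, SE, n = 5 and 5, limma adjusted p = 0.00792) and the gene-level values of Dapl1 and of the lymphocyte egress receptor S1pr1 rose (adjusted p = 0.0191 and 0.0129), where 0.721% of all genes passed as higher. S1pr1 had a difference of -0.76 in replicates 2 and 3. Over the 6 genes the mean ran from -0.15 to 0.29 in KO arrays and from -0.29 to 0.096 in WT arrays. The mean of the 3 tested B cell genes ran from -0.16 to 0.27 in KO arrays and from -0.12 to -0.015 in WT arrays, and 0 of the 3 passed. Of the T cell genes 7 of 7 tested lay below 0, with a median of -0.29 over the 10 arrays, -0.67 in replicates 2 and 3 alone, and 0.022 for the gene-level values, and 0 passed. Their mean ran from -0.42 to 0.0076 in KO arrays and from -0.11 to 0.40 in WT arrays. These genes were bright, from percentile 89.8 (Cd247) to 99.9 (Cd3g) of the exon-level values. The 99th percentile of signal was 11.40 in KO2 and 11.57 in KO3, against 12.23 in WT2 and 12.31 in WT3. The part of this array scale in the T cell gene differences was not tested. Medians were 0.24 for 3 erythroid genes and 0.083 for 2 NK cell genes, and the myeloid gene Csf1r was at 0.20, with 0 passing in each list. The part of these markers in the Dbp difference was not tested.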

How the data were processed

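The values are log2 RMA signals as deposited, with RMA named in the submitters' processing notes; further steps are not known here. RNA was amplified from an oligo(dT) primer, per the labels' protocols. Probe sets took their gene from GEO's platform annotation, updated through the RefSeq gene table (GRCm38.p6). A gene's value was the mean of its exon-level probe sets or its brightest gene-level probe set. The filter on dim genes kept those whose mean signal reached the 30th percentile of both tables. A gap of over 0.5 log2 between array medians divided the exon-level table into 2 scale sets. Fits used R 4.3.3 and limma 3.58.1 (lmFit, eBayes, 2-sided, Benjamini-Hochberg adjusted p under 0.05 over all genes tested). The main fit was KO minus WT with the 3 scale sets as block, and each table was also fitted alone, the exon-level one with its 2 sets as block. A further fit tested the genotype by table interaction. Fits were tested on simulated data. The tables were normalized separately, so differences were taken within them.

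Genes named are the 10 members, the members of each list that passed or else the one of smallest p, the neighbours of Dbp, the 5 genes most like it and Klf13. Arntl, Hlf, Ciart, Tsc22d3, Car11, Sphk2 and the probe sets singled out were chosen after their values were seen. The members, lists and fits were chosen with earlier results of these data known. The number of arrays limits the precision. Each sample is labelled with its own mouse. Alternatives were another block, normalization, probe set summary, filter, variance model or array weighting, a block for the replicate number, and the omission of single arrays. All columns were used.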

Additional observations from a re-analysis of the deposited data

How the results depend on the processing

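The Dbp difference lay between 0.60 and 0.82 over the 10 arrays in the 22 settings. For the gene-level table it lay between 1.02 and 1.15 in 15 settings. Many settings cannot move this estimate, such as another filter, variance model or block. Dbp was also chosen on this contrast, so nothing is read from its kept sign. Of the 9 partners 0 passed over all arrays, in the exon-level table or in the interaction under any setting tried. Nr1d2 alone (1 of 9) passed among the gene-level values with the replicate block and without WT4, so that leaving out single arrays gave 0 to 1 called.

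The count of genes called over all arrays was 4 with the table as block, 31 with the median of exon-level probe sets, 39 with that median and quantile normalization, 504 with array weights, 23 with the replicate block, and 12 (without KO4) to 362 (without KO3) with single arrays left out, against 73. Of these 73, 12 were higher and 61 lower; the split was 145 and 359 with array weights and 13 and 26 with the median and quantile normalization. The gene-level count was 517 with trend and robust, 660 with the replicate block and 193 to 529 with single arrays left out, against 339. The exon-level count was 16 with array weights, 48 with the replicate block and 0 to 426 (without KO3), against 0. The interaction count was 13 with array weights and 0 to 121 (without KO3), against 0. The causes were not tested. The labels name no animal shared by arrays of one replicate number. Deviations of arrays with one number correlated at -0.42 for replicates 2 and 3, and at -0.24 for the gene-level arrays. With so few arrays these correlations cannot show whether arrays of one number shared a preparation.

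Signs near 0 turned without any call. With quantile normalization within each table these were Nr1d2 0.0060, Per1 0.064 and Cry1 0.0036 (0.018 in the gene-level table), and within each scale set Nr1d2 0.0044, Per1 0.063 and Cry1 0.0051 (0.018). Subtracted medians gave Per1 0.0088. The median of probe sets gave Tef -0.051, Nr1d1 -0.041, Per2 -0.023 and Cry2 -0.19, and with quantile normalization Tef -0.0067, Nr1d1 -0.034, Per1 0.047, Cry2 -0.15 and, in the gene-level table, Cry1 0.018. Array weights gave Nr1d1 -0.012, Nr1d2 0.24, Per1 0.056, Cry1 0.032 and Clock 0.041. With single arrays left out the values spanned -0.061 to 0.069 for Tef, -0.076 to 0.072 for Per1, -0.18 to 0.17 for Cry2, -0.028 to 0.20 for Nr1d1, -0.20 to 0.23 for Nr1d2, -0.14 to 0.034 for Cry1 and -0.24 to 0.10 for Clock. For the gene-level table they spanned -0.090 to 0.020 for Per2, -0.039 to 0.26 for Tef and -0.070 to 0.011 for Cry1.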
